A study of Homo sapiens with 14 samples.

Results

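The death receptor genes described here are the TRAIL ligand gene TNFSF10, its signalling receptors TNFRSF10A and TNFRSF10B, its decoy receptors TNFRSF10C and TNFRSF10D, FAS, the TNF receptor gene TNFRSF1A, and the cytoplasmic genes CASP8 and CFLAR. They were chosen by gene symbol, for the role of their products, and make up 9 of the 60683 gene IDs counted in each library. Poly(A) RNA was sequenced from A549, a lung adenocarcinoma cell line with intact p53, and from SUM159, a triple negative breast cancer cell line with mutant p53. A549 cells were left untreated or received 2 µM palbociclib, an inhibitor of CDK4 and CDK6, for 10 days, 0.5 µM indisulam, which degrades the splicing factor RBM39, for 10 days, both drugs together at those doses for 10 days, or 0.5 µM PF-06873600, which also inhibits CDK2, for 7 days. SUM159 cells were left untreated or received 0.5 µM PF-06873600 for 7 days. Each of the 7 groups had 2 libraries, named by number below, and when the untreated cells were harvested is not given in the sources used here. The question for these genes was how the receptor pathway of apoptosis was set at the RNA level in cells treated with these drugs.

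TRAIL and FAS ligand start apoptosis by clustering receptors whose inner part carries a death domain. The adaptor FADD then gathers caspase-8, the product of CASP8, which cleaves itself and the executioner caspases. c-FLIP, the product of CFLAR, resembles caspase-8 but lacks its activity and can take its place in the complex. The receptors made from TNFRSF10C and TNFRSF10D bind TRAIL without a working death domain. TNFRSF1A signals mainly to NF-kB and can also lead to a caspase-8 complex. FAS and the TRAIL receptor genes are known targets of p53, TNFSF10 is known as an interferon-induced gene, and CFLAR as a target of NF-kB.

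Counts on genes ranged from 13060374 to 21149256 per library. The study calls its duplicates technical, so that p-values measure only the spread between these samples, which may be technical, and an exact two-sided permutation test of 2 against 2 libraries cannot go below 0.33. Between the duplicates of a group, the chi-square per degree of freedom over genes ran from 1.61 (A549 with PF-06873600) to 9.57 (untreated A549), with untreated SUM159 at 9.05, so no pair was 1 library deposited again. Levels are given as CPM, the counts of a gene scaled to the same total on genes in every library. The 5 epithelial markers summed to between 4672 and 5429 CPM in untreated A549 and to between 699 and 755 CPM in untreated SUM159, where the 3 mesenchymal markers summed to between 4249 and 4570 CPM. The epithelial sum in untreated SUM159 was nearly all KRT8 (417 CPM) and KRT18 (309 CPM). KRT19, EPCAM and CDH1 stood at 0.430, 0.641 and 0.0905 CPM there. The 5 lung markers summed to at most 1.09 CPM in untreated A549, with SFTPA1 and SFTPB at 0. Of 6 breast markers, 5 were above 3 counts in untreated SUM159 and PGR was at 0, and they summed to between 125 and 130 CPM, nearly all from ERBB2 (120 CPM), against between 143 and 167 CPM in untreated A549. The summed level of 4 fibroblast markers went from between 1.97 and 2.2 CPM in untreated A549 to between 82.5 and 84.0 CPM with the combination, and from between 1699 and 1797 CPM to between 4029 and 4191 CPM in SUM159 with PF-06873600. In A549 with the combination nearly all of that sum was COL1A1 (73.6 CPM) and LUM (8.94 CPM), with DCN at 0.232 CPM and PDGFRB at 0.506 CPM. The T cell marker CD3E had 0 counts in every library, and 5 leukocyte markers summed to between 5.13 and 6.59 CPM in untreated A549 and to between 9.43 and 11.3 CPM with the combination. With indisulam they reached 14.7 to 15.3 CPM, and in SUM159 they went from between 10.6 and 11.1 CPM to between 27.3 and 29.9 CPM with PF-06873600, as 3 endothelial markers went from at most 11.6 CPM to at least 26.9 CPM. Most of these sums came from CD14 (11.6 CPM) with indisulam, and from PTPRC (19.1 CPM) and PECAM1 (26.6 CPM) in treated SUM159. The 5 genes known to be high in A549 summed to at least 18453 CPM in untreated cells and to at most 8094 CPM with the combination. They summed to at least 21880 CPM with palbociclib, 13050 CPM with indisulam and 18758 CPM with PF-06873600. With the combination AKR1B10 fell from 6482 to 1554 CPM and ALDH3A1 from 6738 to 2181 CPM. ALDH1A1 went from 3977 to 3657 CPM, and TFPI2 rose from 76.2 to 145 CPM. The part of these shifts in the results was not tested. In bulk RNA, fewer cells with a transcript and less of it per cell cannot be told apart, and counts per gene do not separate the known splice forms of FAS, CASP8 and CFLAR.

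Against untreated A549 cells, PF-06873600 raised 7 of the 9 genes by edgeR, where 28.5% of all genes were higher. The combination raised 8 against 35.1%, indisulam 7 against 28.0% and palbociclib 3 against 8.30%. All 3 palbociclib calls were lost with only the compared groups in the fit. In SUM159 cells PF-06873600 raised 6 of the 8 genes tested, against 38.1% of all genes, and lowered 2, against 35.6%. TNFSF10, among those 6, passed the filter on low counts only through the treated libraries, so only a rise could be called. FAS moved most in A549 cells, TNFSF10 most in SUM159 cells, and TNFRSF1A was lower in both lines with PF-06873600. The 4 A549 comparisons share the same untreated libraries, so their directions are not independent of each other.

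With palbociclib, 3 of 9 genes were called higher by edgeR (TNFRSF10D, FAS and TNFSF10) against 8.30% of all 15780 genes tested. DESeq2 called 2 of them higher, and edgeR with only the compared groups in the fit called 0. None was called lower, by edgeR or by DESeq2, against 7.40% of all genes, and 0 of the 9 had a negative change with an unadjusted p under 0.05 in either tool. With indisulam, 7 of 9 were higher against 28.0% of all genes and 0 were lower, again also without adjustment and by DESeq2, against 17.5%. With the combination, 8 of 9 were higher against 35.1% and 1 was lower against 30.0%. With PF-06873600 in A549, 7 of 9 were higher against 28.5% and 1 was lower against 27.8%. In SUM159, 6 of 8 were higher against 38.1% of 15055 genes and 2 were lower against 35.6%. The 6 include TNFSF10, which passed the filter on low counts there only through the treated libraries. The median log2 change of the 9 genes was 0.08 with palbociclib, 0.41 with indisulam, 0.60 with the combination and 0.63 with PF-06873600, where the median over all genes tested was -0.01, 0.08, 0.05 and -0.01. In SUM159 it was 0.88 over 8 genes, TNFSF10 included, against 0.02 over all genes.

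**Figure D1:**
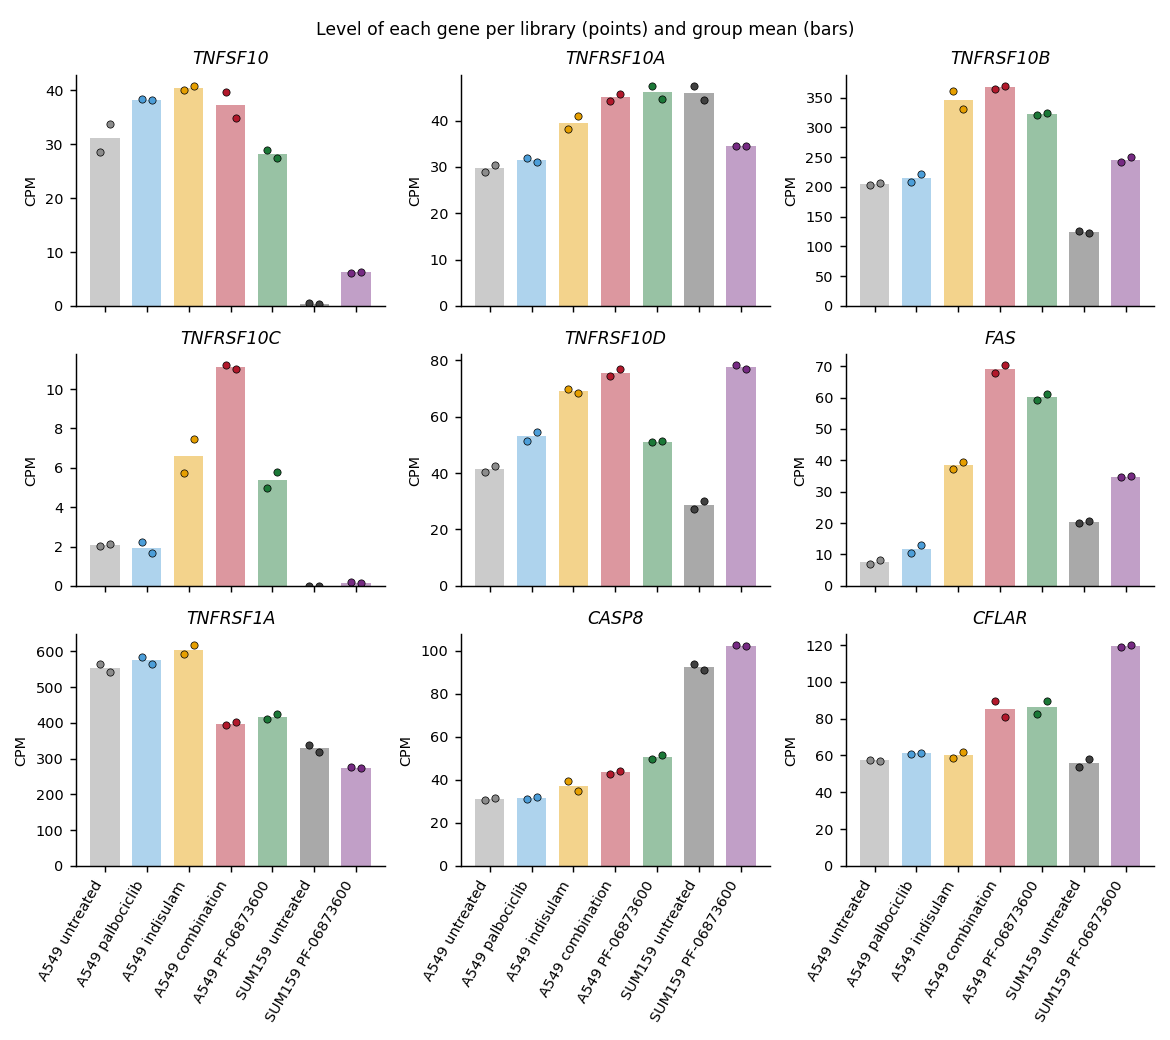
Levels in CPM (vertical axis, from 0) of the 9 genes in the 7 groups, with a point for each of the 2 libraries of a group and a bar at their mean. FAS stands between 6.93 and 8.40 CPM in untreated A549 and between 67.9 and 70.2 CPM with the combination, and TNFSF10 is near 0 only in untreated SUM159 among the 7 groups.

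**Figure D2:**
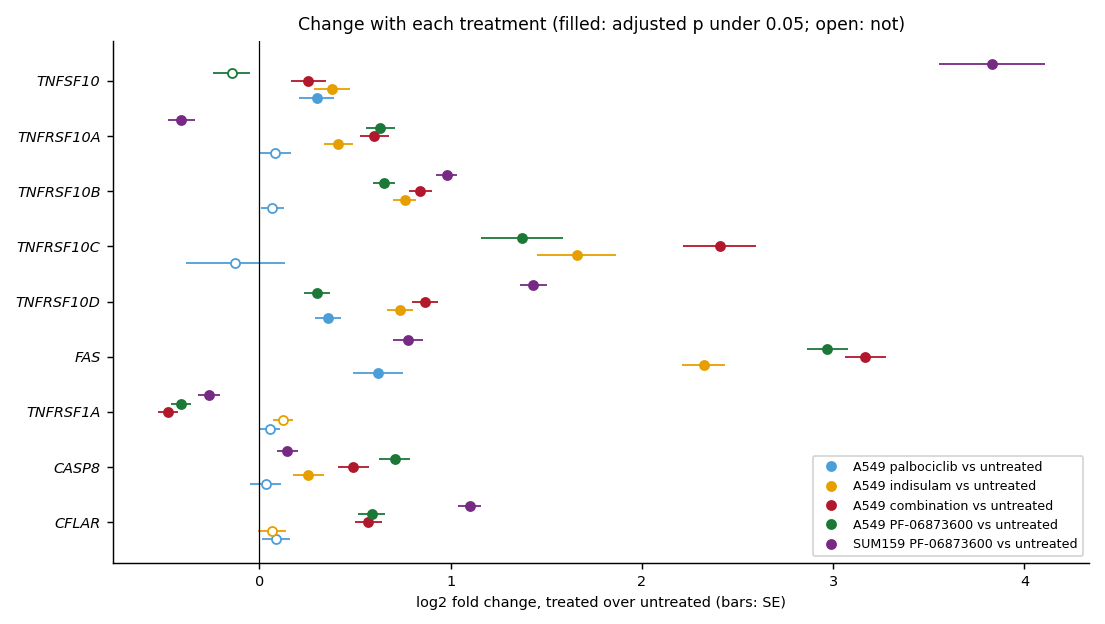
The log2 fold change of each gene against untreated cells of the same line (horizontal axis), with bars of 1 SE from edgeR, filled points where the adjusted p was under 0.05 and open points where it was not. TNFRSF1A lies left of 0 for the combination and for PF-06873600 in both lines, and TNFRSF10A lies right of 0 in A549 and left of 0 in SUM159 with PF-06873600; TNFRSF10C was not tested in SUM159.

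The ligand gene TNFSF10 (ENSG00000121858, chromosome 3, 172505508 to 172523475, minus strand, hg38) encodes TRAIL. It stood at 28.5 and 33.7 CPM in untreated A549, 38.4 and 38.3 CPM with palbociclib, 40.1 and 40.9 CPM with indisulam, 39.6 and 34.8 CPM with the combination and 28.9 and 27.5 CPM with PF-06873600. The 3 palbociclib and indisulam treatments lay above both untreated libraries, while the PF-06873600 libraries overlapped them. By edgeR the log2 change was 0.30 ± 0.09 (SE) with palbociclib (adjusted p = 0.0404), 0.38 ± 0.09 with indisulam (adjusted p = 0.00384), 0.26 ± 0.09 with the combination (adjusted p = 0.0248) and -0.14 ± 0.10 with PF-06873600 (adjusted p = 0.215). The palbociclib and combination calls were not stable. Over 11 alternatives the adjusted p for palbociclib ran from 0.00391 to 0.179 and the call was lost in 6, among them without untreated A549 library 1 (log2 0.18) or either palbociclib library, and over 10 alternatives that for the combination ran from 0.00194 to 0.236 and was lost in 5, among them without untreated library 1 (log2 0.14) or combination library 1 (log2 0.16). Without untreated library 1, TNFSF10 was lower with PF-06873600 (log2 -0.26, adjusted p = 0.0266, in a range from 0.0266 to 0.898 over its 10 alternatives).

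In SUM159 the picture differed. TNFSF10 stood at 0.482 and 0.376 CPM in untreated cells, which are 8 and 6 counts, and at 6.08 and 6.34 CPM with PF-06873600. Both treated libraries were far above both untreated ones and below all A549 libraries. The rise was 14.2-fold (log2 3.83 ± 0.28, edgeR adjusted p = 8.95e-09), the largest among the 8 genes tested, and the response exceeded that of A549 by 3.97 ± 0.27 on the log2 scale (edgeR adjusted p = 4.11e-10). In the SUM159 model TNFSF10 passed the filter on low counts only through the treated libraries, so only a rise could be called there. Untreated SUM159 had a 71.0-fold lower TNFSF10 level than untreated A549 (log2 -6.15 ± 0.19, edgeR adjusted p = 2.84e-16).

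TNFSF10 had the largest tested difference between the untreated lines and the largest rise in SUM159 among the genes tested there, apart from TNFRSF10C, whose untreated SUM159 level was 0. The stretch before its first annotated exon is therefore shown, from 250 to 46 bases before the RefSeq start at chr3:172523476-172523680 (GRCh38.p14, minus strand, 5′ to 3′). The motif searched was GAAA, a gap of 2 bases and GAAA on either strand, found in 3.02% of 35116 RefSeq promoters of 250 bases, and capitals mark its match at -187 to -178.
TNFSF10: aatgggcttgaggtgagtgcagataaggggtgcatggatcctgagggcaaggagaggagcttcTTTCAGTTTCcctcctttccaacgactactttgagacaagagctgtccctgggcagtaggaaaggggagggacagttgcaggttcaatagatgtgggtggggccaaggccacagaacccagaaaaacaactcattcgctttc
A TATAAA match lay nearer the start, at -31 to -26, as in 10.7% of promoters. A match describes letters only and is no measure of binding.

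Of the other ligand genes, FASLG, TNF, LTA and LTB had at most 6 counts in any library and were not tested. TNFSF15, whose product binds the death receptor of TNFRSF25, fell in A549 from 45.7 ± 0.0392 CPM (SD, n = 2) to 25.8 ± 2.25 CPM with the combination (log2 -0.82 ± 0.08, edgeR adjusted p = 3.34e-07) and to 25.7 ± 0.679 CPM with PF-06873600 (log2 -0.83 ± 0.08, edgeR adjusted p = 5.01e-07). With palbociclib (log2 0.82 ± 0.07, edgeR adjusted p = 3.29e-06) and with indisulam it rose instead. Its counts in SUM159 were 1 and 0 untreated, against 56 and 39 with PF-06873600. The ligand for FAS was thus not detectable above a few counts in either line, whatever the treatment.

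The signalling TRAIL receptors lie in a row with their decoys on chromosome 8. TNFRSF10B (ENSG00000120889, 23020133 to 23069031, minus strand), which encodes DR5, was at 203 and 207 CPM in untreated A549 and at 208 and 221 CPM with palbociclib. It reached 362 and 331 CPM with indisulam, 364 and 370 CPM with the combination and 320 and 324 CPM with PF-06873600. Every library of these last 3 groups exceeded all untreated and palbociclib libraries. The rise was 1.69-fold with indisulam (log2 0.76 ± 0.06, edgeR adjusted p = 1.28e-07), 1.79-fold with the combination (log2 0.84 ± 0.06, edgeR adjusted p = 1.17e-08) and 1.57-fold with PF-06873600 (log2 0.65 ± 0.06, edgeR adjusted p = 3.17e-07). With palbociclib the log2 change was 0.07 ± 0.06 (edgeR adjusted p = 0.504). In SUM159 it went from 127 and 123 CPM to 241 and 250 CPM with PF-06873600, a 1.97-fold rise (log2 0.98 ± 0.05, edgeR adjusted p = 4.96e-10) with no overlap. RHOBTB2 on the other strand shares 377 exon bases with TNFRSF10B and stood at 39.2 and 39.2 CPM in untreated A549 and at 78.6 and 81.9 CPM with the combination. It was also higher with palbociclib, at 55.6 and 55.0 CPM, where TNFRSF10B was not called, and lower in SUM159 with PF-06873600, from 57.3 and 51.6 CPM to 44 and 47 CPM, where TNFRSF10B rose. Its part in the TNFRSF10B counts was not tested.

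TNFRSF10A (ENSG00000104689, chromosome 8, 23190452 to 23225102, minus strand) encodes DR4. Its untreated A549 libraries held 29.0 and 30.4 CPM, and those with palbociclib 31.9 and 31.1 CPM. With indisulam it was at 38.1 and 41.0 CPM, with the combination at 44.2 and 45.8 CPM and with PF-06873600 at 47.5 and 44.6 CPM. These last 3 groups again lay above untreated cells without overlap. Its log2 change was 0.41 ± 0.08 with indisulam (edgeR adjusted p = 0.000604), 0.60 ± 0.08 with the combination (edgeR adjusted p = 7.72e-06) and 0.63 ± 0.08 with PF-06873600 (edgeR adjusted p = 6.75e-06). In SUM159 the direction was the opposite. The libraries went from 47.4 and 44.3 CPM untreated to 34.5 and 34.6 CPM with PF-06873600, a fall to 0.754 of the untreated level (log2 -0.41 ± 0.07, edgeR adjusted p = 8.99e-05). The difference in response between the lines was -1.04 ± 0.10 on the log2 scale (edgeR adjusted p = 6.25e-08). DR4 and DR5 transcripts thus moved together in A549 and apart in SUM159.

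The decoy gene TNFRSF10C (ENSG00000173535, chromosome 8, 23102921 to 23117445, plus strand) encodes a receptor held at the membrane by a lipid anchor. It was low, at 2.04 and 2.13 CPM in untreated A549, 2.23 and 1.65 CPM with palbociclib, 5.74 and 7.47 CPM with indisulam, 11.2 and 11 CPM with the combination and 4.98 and 5.81 CPM with PF-06873600. The combination libraries stood above all others. By edgeR it rose 3.16-fold with indisulam (log2 1.66 ± 0.21, adjusted p = 1.55e-05), 5.30-fold with the combination (log2 2.41 ± 0.19, adjusted p = 5.00e-08) and 2.59-fold with PF-06873600 (log2 1.37 ± 0.21, adjusted p = 7.22e-05). Its counts in SUM159 were 0 and 0 untreated and 3 and 3 with PF-06873600, at the floor of 3 counts, so no fold is given there. Untreated A549 was at least 11.3-fold higher than untreated SUM159, taking 3 counts per library as the floor. The gene shares 16.9% of its exon bases with ENSG00000284948 on the same strand, and that gene went from 1.97 and 2.07 CPM untreated to 1.49 and 1.22 CPM with the combination, so it did not move with TNFRSF10C.

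TNFRSF10D (ENSG00000173530, chromosome 8, 23135588 to 23164027, minus strand) encodes the decoy with a shortened death domain. It stood at 40.4 and 42.5 CPM in untreated A549, 51.5 and 54.7 CPM with palbociclib, 69.7 and 68.3 CPM with indisulam, 74.3 and 76.8 CPM with the combination and 51.0 and 51.3 CPM with PF-06873600. All 8 treated A549 libraries exceeded both untreated ones. The log2 change was 0.36 ± 0.07 with palbociclib (edgeR adjusted p = 0.00245), 0.73 ± 0.07 with indisulam (edgeR adjusted p = 7.05e-07), 0.87 ± 0.07 with the combination (edgeR adjusted p = 3.34e-08) and 0.30 ± 0.07 with PF-06873600 (edgeR adjusted p = 0.00167). The palbociclib call was lost in 1 of 11 alternatives, with only the compared groups in the fit (adjusted p from 0.000944 to 0.0547 over the 11). In SUM159 it went from 27.3 and 30.1 CPM to 78.2 and 76.8 CPM, a 2.70-fold rise (log2 1.43 ± 0.07, edgeR adjusted p = 9.82e-11). PF-06873600 at the same dose and time thus gave a larger rise in SUM159 than in A549, by 1.13 ± 0.10 on the log2 scale (edgeR adjusted p = 8.93e-09).

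FAS (ENSG00000026103, chromosome 10, 88953813 to 89029605, plus strand) encodes the receptor for FAS ligand. It held 6.93 and 8.40 CPM in untreated A549, 10.5 and 12.9 CPM with palbociclib, 37.3 and 39.6 CPM with indisulam, 67.9 and 70.2 CPM with the combination and 59.2 and 61.0 CPM with PF-06873600. No neighbouring groups overlapped in this order from untreated through palbociclib, indisulam and PF-06873600 to the combination. The rise was 1.53-fold with palbociclib (log2 0.62 ± 0.13, edgeR adjusted p = 0.00513), 5.00-fold with indisulam (log2 2.32 ± 0.11, edgeR adjusted p = 9.69e-10), 8.99-fold with the combination (log2 3.17 ± 0.11, edgeR adjusted p = 4.23e-12) and 7.83-fold with PF-06873600 (log2 2.97 ± 0.11, edgeR adjusted p = 2.52e-11). The palbociclib call was lost with only the compared groups in the fit and without palbociclib library 2 (log2 0.45, adjusted p = 0.0977, in a range from 0.000201 to 0.0977 over 11 alternatives), and the other 3 calls held under every alternative run. In SUM159 FAS went from 19.9 and 20.8 CPM to 34.6 and 35.0 CPM, a 1.71-fold rise (log2 0.78 ± 0.08, edgeR adjusted p = 4.46e-07). This rise was smaller than that of A549 by 2.19 on the log2 scale (SUM159 minus A549 -2.19 ± 0.14, edgeR adjusted p = 1.32e-10).

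ACTA2, the smooth muscle actin gene, runs across FAS on the other strand and shares 387 exon bases, or 1.32% of those of FAS. It stood at 11.7 and 10.7 CPM in untreated A549, 61.5 and 63.5 CPM with indisulam, 79.1 and 71.9 CPM with the combination and 58.1 and 55.3 CPM with PF-06873600. In SUM159 it went from 3.92 and 3.70 CPM to 17.2 and 18.3 CPM. ACTA2 thus moved with FAS in each of these groups, and since the strand setting of the counting is not given, its part in the FAS counts was not tested. STAMBPL1, which overlaps FAS on the same strand by 166 exon bases, went from 10.2 and 10.3 CPM in untreated A549 to 8.15 and 8.17 CPM with the combination.

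TNFRSF1A (ENSG00000067182, chromosome 12, 6328757 to 6342114, minus strand) encodes the main TNF receptor. It was at 565 and 543 CPM in untreated A549, 585 and 565 CPM with palbociclib, 591 and 617 CPM with indisulam, 394 and 401 CPM with the combination and 410 and 424 CPM with PF-06873600. Neither single drug lowered it, and both the combination and PF-06873600 lay below every other A549 library. It fell by 0.48 ± 0.05 on the log2 scale with the combination (edgeR adjusted p = 1.89e-06) and by 0.41 ± 0.05 with PF-06873600 (edgeR adjusted p = 1.33e-05). With palbociclib the log2 change was 0.05 ± 0.05 (edgeR adjusted p = 0.556) and with indisulam 0.12 ± 0.05 (edgeR adjusted p = 0.0683). Without untreated library 1 the indisulam change was called higher (log2 0.15, adjusted p = 0.0211, in a range from 0.0211 to 0.551 over 10 alternatives). In SUM159 it fell from 338 and 319 CPM to 275 and 273 CPM with PF-06873600 (log2 -0.26 ± 0.06, edgeR adjusted p = 0.000706). The response of the lines did not differ past the threshold (SUM159 minus A549 0.15 ± 0.08 on the log2 scale, edgeR adjusted p = 0.114).

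TNFRSF1A was the only one of the 9 genes to fall with PF-06873600 in both lines. Its promoter is shown because none of the 6 motifs searched matched it, on either strand, from 250 to 1 bases before the RefSeq start. The stretch without annotated exon is chr12:6342115-6342326 (GRCh38.p14, minus strand, 5′ to 3′).
TNFRSF1A: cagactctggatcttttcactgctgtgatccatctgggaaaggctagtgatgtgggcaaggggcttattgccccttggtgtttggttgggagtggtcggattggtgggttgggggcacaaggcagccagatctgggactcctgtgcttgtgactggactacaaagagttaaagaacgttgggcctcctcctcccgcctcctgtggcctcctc
The motifs were the interferon-type motif and TATAAA named above, the AP-1 motif TGANTCA (6.57% of promoters), the GC box GGGCGG (42.6%), the NF-kB consensus (9.96%) and the consensus of a p53 half-site (5.57%). No match says only that these letters are not in this window.

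CASP8 (ENSG00000064012, chromosome 2, 201233443 to 201361836, plus strand) encodes the initiator caspase. Its A549 levels were 30.4 and 31.6 CPM untreated, 31.2 and 32.2 CPM with palbociclib, 39.3 and 34.7 CPM with indisulam, 42.9 and 44.3 CPM with the combination and 49.8 and 51.4 CPM with PF-06873600. The libraries of the last 2 groups lay above those of untreated cells. They did not overlap each other either, but the call between these 2 groups was lost in 5 of 10 alternatives, as given below. The log2 change was 0.49 ± 0.08 with the combination (edgeR adjusted p = 7.78e-05) and 0.71 ± 0.08 with PF-06873600 (edgeR adjusted p = 2.86e-06), and 0.03 ± 0.08 with palbociclib (edgeR adjusted p = 0.842). With indisulam it was 0.26 ± 0.08 (edgeR adjusted p = 0.0189), a call lost in 5 of 10 alternatives (adjusted p from 0.0115 to 0.235), including TMM scaling and the fits without untreated library 1 or indisulam library 1 (log2 0.16). In SUM159 CASP8 was higher from the start, at 93.8 and 91.1 CPM, 2.98-fold over untreated A549 (log2 1.58 ± 0.07, edgeR adjusted p = 7.93e-14). It stood at 103 and 102 CPM with PF-06873600 (log2 0.15 ± 0.05, edgeR adjusted p = 0.0224), a call lost in 4 of 9 alternatives (adjusted p from 0.00776 to 0.144), including those without either treated library.

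The promoter of CASP8 is shown because CASP8 and FAS were the only members with an AP-1 match among the 5 in the RefSeq table. Capitals mark TGANTCA at -61 to -55, in the stretch from 250 to 37 bases before the start, chr2:201260286-201260499 (GRCh38.p14, plus strand, 5′ to 3′).
CASP8: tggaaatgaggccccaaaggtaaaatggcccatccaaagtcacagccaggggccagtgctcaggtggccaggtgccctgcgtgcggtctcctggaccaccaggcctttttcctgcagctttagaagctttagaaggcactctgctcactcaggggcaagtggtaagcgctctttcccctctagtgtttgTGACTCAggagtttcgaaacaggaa
The windows of FAS and CFLAR lay wholly or mostly in annotated exons and are not printed. FAS had an AP-1 match at -242 to -236 and a GC box at -60 to -55, and CFLAR an NF-kB consensus match at -97 to -88 and a GC box at -101 to -96. The RefSeq start used for CFLAR lies 2552 bases from that of its MANE Select transcript, so these positions do not refer to the start of the main transcript.

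CFLAR (ENSG00000003402, chromosome 2, 201116154 to 201176687, plus strand) ends before the start of CASP8 on the same strand. It held 57.8 and 57.3 CPM in untreated A549, 60.9 and 61.5 CPM with palbociclib, 58.6 and 61.8 CPM with indisulam, 89.8 and 81.0 CPM with the combination and 82.7 and 89.9 CPM with PF-06873600. All 8 treated A549 libraries lay above both untreated ones, those with palbociclib or indisulam by at most a few CPM, and only the combination and PF-06873600 passed the test. CFLAR rose by 0.57 ± 0.07 on the log2 scale with the combination (edgeR adjusted p = 6.30e-06) and by 0.59 ± 0.07 with PF-06873600 (edgeR adjusted p = 6.83e-06). With palbociclib the log2 change was 0.09 ± 0.07 (edgeR adjusted p = 0.467) and with indisulam 0.07 ± 0.07 (edgeR adjusted p = 0.488, and slightly negative under TMM and DESeq2 scaling). In SUM159 it went from 53.6 and 58.0 CPM to 119 and 120 CPM, a 2.14-fold rise (log2 1.10 ± 0.06, edgeR adjusted p = 2.98e-10). Untreated cells of the 2 lines overlapped in CFLAR (log2 -0.04 ± 0.07, edgeR adjusted p = 0.569), and the response of SUM159 was larger by 0.51 ± 0.10 (edgeR adjusted p = 0.000147).

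Adding indisulam to palbociclib raised 7 of the 9 genes against 33.5% of all genes and lowered TNFRSF1A against 26.9%. TNFSF10 was not called (log2 -0.04 ± 0.09, edgeR adjusted p = 0.705). Adding palbociclib to indisulam raised 4 (TNFRSF10C, FAS, CASP8 and CFLAR) against 22.0% and lowered TNFRSF1A (log2 -0.60 ± 0.05, edgeR adjusted p = 4.31e-07) against 23.9%. FAS rose by 0.85 ± 0.09 on the log2 scale in that comparison (edgeR adjusted p = 2.02e-06) and CFLAR by 0.50 ± 0.07 (edgeR adjusted p = 4.62e-05), whereas the CASP8 call (log2 0.24 ± 0.08, edgeR adjusted p = 0.0227) was lost in 4 of 10 alternatives (adjusted p from 0.0126 to 0.233), including those without indisulam library 2 (log2 0.15) or either combination library. The TRAIL receptor genes TNFRSF10B and TNFRSF10D did not pass the threshold there (log2 0.08 ± 0.06 and 0.13 ± 0.06, edgeR adjusted p = 0.265 and 0.106).

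The test of the combination beyond the sum of both single log2 changes called 2 genes higher, against 10.7% of all genes, and 2 lower, against 14.5%. TNFRSF1A fell short of the sum by most, at -0.66 ± 0.08 (edgeR adjusted p = 1.68e-05), and this call held under all alternatives run. CFLAR exceeded the sum by 0.41 ± 0.10 (edgeR adjusted p = 0.00800), a call lost without combination library 1 (log2 0.34, adjusted p = 0.0536, the highest of 14 alternatives, which began at 0.00351). TNFRSF10C exceeded it by 0.87 ± 0.30 (edgeR adjusted p = 0.0494) and TNFSF10 fell short by 0.42 (log2 -0.42 ± 0.13, edgeR adjusted p = 0.0270). Those 2 calls were weak, lost in 10 and 7 of 14 alternatives (adjusted p from 0.0290 to 0.216 and from 0.00165 to 0.138). FAS, at 0.23 ± 0.16 (edgeR adjusted p = 0.332), and TNFRSF10B, at 0.02 ± 0.08 (edgeR adjusted p = 0.923), did not pass the threshold.

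PF-06873600 and the combination were given for 7 and 10 days, so drug and time cannot be told apart between them. TNFRSF10B, TNFRSF10C, TNFRSF10D and TNFSF10 were called lower with PF-06873600 than with the combination, 4 of 9 against 30.6% of all genes, and CASP8 was called higher against 21.2%. TNFRSF10C stood at 0.489 of its combination level (log2 -1.03 ± 0.16, edgeR adjusted p = 0.000110), TNFRSF10D at 0.676 (log2 -0.56 ± 0.07, edgeR adjusted p = 6.58e-06) and TNFSF10 at 0.757 (log2 -0.40 ± 0.09, edgeR adjusted p = 0.00252). The decoys thus differed most. The TNFRSF10B call (log2 -0.19 ± 0.06, edgeR adjusted p = 0.0136) was lost in 5 of 10 alternatives (adjusted p from 1.92e-05 to 0.186), among them those without combination library 2 or either PF-06873600 library. The CASP8 call (log2 0.21 ± 0.08, edgeR adjusted p = 0.0292) was also lost in 5 of 10 (adjusted p from 0.00201 to 0.162), including all 4 that left out a library of these groups.

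Between untreated lines, 3 of 9 genes were higher in SUM159 (TNFRSF10A, FAS and CASP8), against 41.9% of 17279 genes, and 5 were lower (TNFRSF10B, TNFRSF10C, TNFRSF10D, TNFRSF1A and TNFSF10), against 36.8%. FAS was 2.65-fold higher (log2 1.41 ± 0.11, edgeR adjusted p = 9.22e-10) and TNFRSF10A 1.55-fold higher (log2 0.63 ± 0.07, edgeR adjusted p = 2.27e-07) in SUM159. TNFRSF10B stood at 0.608 of its A549 level there (log2 -0.72 ± 0.06, edgeR adjusted p = 1.17e-09) and TNFRSF1A at 0.594 (log2 -0.75 ± 0.05, edgeR adjusted p = 1.66e-10). The response to PF-06873600 differed between the lines for 7 of the 9 genes, with 4 larger in SUM159 against 25.8% of all genes and 3 smaller against 27.2%. These were TNFSF10, TNFRSF10D, CFLAR and TNFRSF10B on the larger side and FAS, TNFRSF10A and CASP8 on the smaller.

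In order of level over all 7 groups, TNFRSF10B, FAS and TNFRSF1A had no neighbours whose libraries overlapped. TNFRSF10A was lowest in untreated A549, and its 3 highest groups, the combination, untreated SUM159 and A549 with PF-06873600, overlapped. TNFRSF10D was lowest in untreated SUM159, and its 2 highest groups, the combination and SUM159 with PF-06873600, overlapped. TNFRSF10C overlapped between palbociclib and untreated A549 and between PF-06873600 and indisulam, and was highest with the combination. CASP8 overlapped between untreated A549 and palbociclib only, and CFLAR in 3 pairs of neighbours, untreated cells of both lines, indisulam and palbociclib, and the combination and A549 with PF-06873600. TNFSF10 overlapped between untreated A549 and PF-06873600 and between the combination and palbociclib, and was lowest in untreated SUM159.

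Levels between genes were compared per kilobase of merged exon. On this scale TNFRSF1A led in untreated A549 with 132 CPM per kilobase, then TNFRSF10B with 40.9, TNFRSF10D with 11.7, TNFRSF10A with 10.1, TNFSF10 with 9.04, CASP8 with 4.28, CFLAR with 2.56, TNFRSF10C with 1.35 and FAS with 0.262. In untreated SUM159 TNFRSF1A (78.2 CPM per kilobase) and TNFRSF10B (24.9) also led, followed by TNFRSF10A (15.7), CASP8 (12.8), TNFRSF10D (8.12), CFLAR (2.48), FAS (0.694) and TNFSF10 (0.125). The order depends on the length used, and the merged exons of FAS come to 29313 bases against 3696 in its MANE Select transcript. With MANE lengths CASP8 (34.8 CPM per kilobase) stood above TNFRSF10B (31.2) in untreated SUM159, and TNFSF10 (16.6) came after TNFRSF1A and TNFRSF10B in untreated A549. With the same lengths FAS came to 2.07 CPM per kilobase in untreated A549 and to 18.7 with the combination.

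The log2 ratio of CFLAR over CASP8 per kilobase was -0.74 ± 0.05 (SD, n = 2) in untreated A549, -0.69 ± 0.02 with palbociclib, -0.93 ± 0.18 with indisulam, -0.67 ± 0.14 with the combination and -0.87 ± 0.05 with PF-06873600. The A549 groups thus spread little, and both CFLAR and CASP8 rose with the combination and with PF-06873600. In SUM159 the ratio went from -2.37 ± 0.11 to -1.41 ± 0.01, as CFLAR rose 2.14-fold and CASP8 1.11-fold, and both treated libraries stood above both untreated ones. With MANE lengths every value was lower by the same amount, so that changes between groups did not depend on the length (untreated A549 -1.57, SUM159 -3.19 and -2.23).

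The log2 ratio of both decoy genes over both signalling TRAIL receptor genes was -1.96 ± 0.02 (SD, n = 2) in untreated A549, -1.72 ± 0.01 with palbociclib, -1.80 ± 0.09 with indisulam and -1.63 with the combination, where the libraries differed by less than 0.01. PF-06873600 was the only one of the 4 treatments with a ratio below untreated A549, at -2.16 ± 0.04. In SUM159 the same drug moved the ratio the other way, from -2.32 ± 0.15 to -1.47 ± 0.05. In none of these groups did the libraries overlap with those of untreated cells of the same line. No test was run on these ratios.

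**Figure D3:**
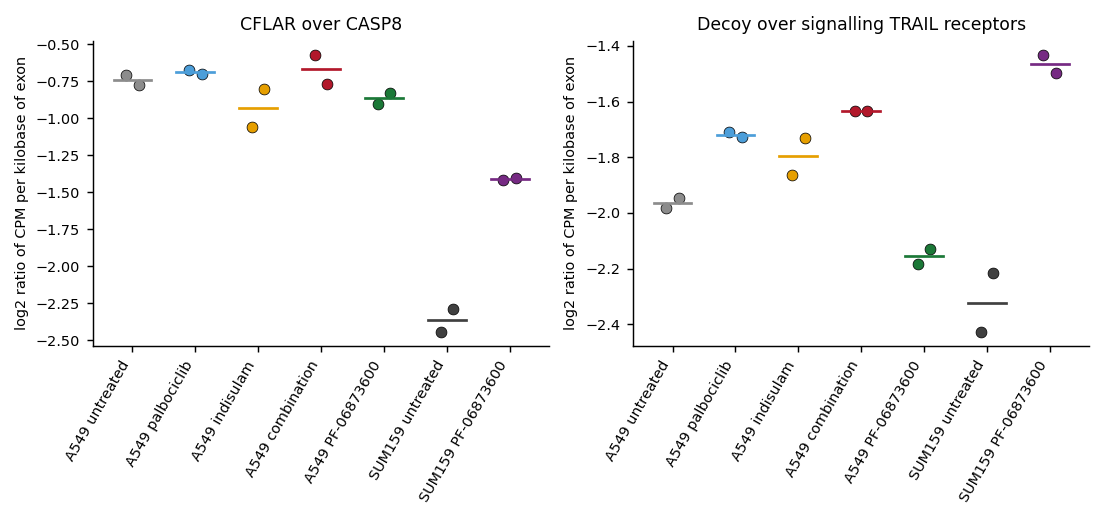
The log2 ratio of CPM per kilobase (vertical axis) of CFLAR over CASP8 (left) and of TNFRSF10C plus TNFRSF10D over TNFRSF10A plus TNFRSF10B (right), with a point for each library and a line at the group mean. The decoy ratio falls with PF-06873600 in A549, from -1.96 to -2.16, and rises in SUM159, from -2.32 to -1.47.

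Of 8 other receptors with a death domain and soluble decoys, 6 were tested in A549 and 3 rose and 2 fell with both the combination and PF-06873600. Over all genes the shares higher and lower were 35.1% and 30.0% with the combination and 28.5% and 27.8% with PF-06873600. For 6 genes these counts are not far from those shares. TNFRSF11B, the soluble receptor osteoprotegerin that also binds TRAIL, fell from 36.4 ± 3.26 CPM (SD, n = 2) to 7.02 ± 0.999 CPM with the combination (log2 -2.37 ± 0.12, edgeR adjusted p = 2.26e-10) and to 8.92 ± 0.0590 CPM with PF-06873600. EDA2R, a receptor gene induced by p53, rose 3.83-fold from 15.7 ± 1.21 CPM with the combination (log2 1.94 ± 0.09, edgeR adjusted p = 6.59e-11) and to 46.8 ± 1.97 CPM with PF-06873600. TNFRSF25, which encodes DR3, rose 8.97-fold from 0.946 ± 0.584 CPM with the combination, and EDAR fell to 9.53 ± 0.461 CPM from 25.1 ± 2.80 CPM. In SUM159 the 4 tested genes of the list all rose with PF-06873600, against 38.1% of all genes. NGFR, with means of 0.247 CPM untreated and 1.64 CPM treated, passed the filter on low counts only through the treated libraries. For it only a rise could be called, and the rest of the 8 were too low to test. TNFRSF21 (DR6) went from 13.5 ± 0.0137 CPM to 75.6 ± 1.65 CPM (log2 2.48 ± 0.07, edgeR adjusted p = 6.58e-13), beside NGFR, TNFRSF25 and TNFRSF1B. TNFRSF6B, the soluble decoy for FAS ligand, had 0 counts in every library, and the lung marker SFTPB and the breast marker PGR had at most 2 and 1.

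At the receptor, 8 of 9 adaptor and initiator genes were tested. With the combination 4 rose and 2 fell, with PF-06873600 3 rose and 1 fell in A549, and 5 rose and 3 fell in SUM159, with medians of 0.20, 0.21 and 0.30 on the log2 scale. Over all genes the shares higher and lower were 35.1% and 30.0%, 28.5% and 27.8%, and 38.1% and 35.6% in the same order, which for 8 genes is not far from these counts. PEA15, whose product binds FADD and caspase-8 through a death effector domain, rose most in A549, from 53.3 ± 3.46 CPM to 336 ± 0.404 CPM with the combination (log2 2.66 ± 0.07, edgeR adjusted p = 3.12e-13) and to 194 ± 2.07 CPM with PF-06873600. In SUM159 it went from 178 ± 12.1 CPM to 347 ± 7.88 CPM. CASP10, the relative of CASP8, rose 1.54-fold with the combination and 2.38-fold in SUM159. MLKL, the effector of necroptosis, fell to 29.6 ± 0.884 CPM from 49.4 ± 1.77 CPM with the combination and rose to 60.9 ± 0.653 CPM with PF-06873600. TRADD rose 1.77-fold with the combination, FADD 1.18-fold with PF-06873600, and DEDD fell with PF-06873600 in both lines (log2 -0.36 ± 0.09 in A549 and -0.48 ± 0.08 in SUM159).

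All 14 genes of the executioners and mitochondrial arm were tested. With the combination 7 rose and 5 fell, with PF-06873600 in A549 9 rose and the other 5 did not pass, and in SUM159 4 rose and 8 fell (medians 0.27, 0.38 and -0.18). The shares over all genes, higher and lower, were 35.1% and 30.0% for the combination, 28.5% and 27.8% for PF-06873600 in A549 and 38.1% and 35.6% in SUM159, and the list's 7 and 5 of 14 with the combination are near them. DESeq2 called 2 higher and 5 lower in SUM159. BAX, a pore-forming protein of mitochondria and a p53 target that is also on that list, rose from 77.9 ± 9.78 CPM to 240 ± 0.562 CPM with the combination and to 175 ± 3.05 CPM with PF-06873600. APAF1 rose 1.99-fold with the combination, and BID, which caspase-8 cleaves, 1.71-fold with PF-06873600. DIABLO rose from a low 1.99 ± 0.170 CPM to 6.64 ± 0.0702 CPM with the combination and to 4.11 ± 0.473 CPM with PF-06873600. In SUM159 BID rose from 51.1 ± 3.24 CPM to 125 ± 1.21 CPM, DIABLO from 1.19 ± 0.359 CPM to 2.09 ± 0.349 CPM, and PARP1 and CYCS fell (log2 -0.83 ± 0.06 and -0.81 ± 0.05).

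The 13 IAP and ubiquitin regulators, of which BIRC3 and TNFAIP3 are also on the NF-kB list, rose in 6 and fell in 2 cases with the combination, in 3 and 3 with PF-06873600 in A549 and in 6 and 3 in SUM159 (medians 0.34, 0.08 and 0.21). The counts with PF-06873600 are near the shares over all genes, 28.5% higher and 27.8% lower in A549 and 38.1% and 35.6% in SUM159. The 6 higher with the combination, against 35.1%, became 4 with TMM or DESeq2, and the 2 lower stood against 30.0%. TNFAIP3, which encodes the NF-kB inhibitor A20, rose 7.55-fold with the combination, 1.86-fold with PF-06873600 in A549 and 8.45-fold in SUM159. BIRC3, which encodes cIAP2, rose 1.43-fold, 1.61-fold and 4.59-fold. In SUM159 TRAF1 rose from 16.2 ± 0.914 CPM to 196 ± 4.84 CPM (log2 3.60 ± 0.07, edgeR adjusted p = 6.47e-15), while in A549 it fell from 2.46 ± 0.462 CPM to 1.10 ± 0.366 CPM with PF-06873600. CYLD rose 1.72-fold with the combination and 2.32-fold in SUM159, SPATA2 1.32-fold with the combination, and TRAF5 fell with PF-06873600 in A549 (log2 -0.41 ± 0.15).

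Among the 20 listed p53 targets other than the 9 genes, 20 rose with the combination (median log2 1.52), 19 with PF-06873600 in A549 (1.5) and 11 in SUM159, where 3 fell (0.31). Of all genes, 35.1%, 28.5% and 38.1% were higher in the same order, and 35.6% were lower in SUM159. CDKN1A, the cell cycle inhibitor p21, went from 41.4 ± 3.19 CPM to 675 ± 12.2 CPM with the combination and to 514 ± 13.8 CPM with PF-06873600. TP53INP1 and PHLDA3 rose 7.11-fold and 4.70-fold with the combination and 5.80-fold and 4.21-fold with PF-06873600, ZMAT3 4.73-fold with the combination and FDXR 4.84-fold with PF-06873600. In SUM159 the largest rises among called genes were in GDF15, from 0.523 ± 0.0574 CPM to 17.4 ± 1.14 CPM, and TP53INP1, from 0.798 ± 0.0656 CPM to 17.2 ± 1.54 CPM, beside BTG2 (3.67-fold) and BBC3 (2.81-fold). GDF15 passed the filter on low counts there only through the treated libraries. The response in SUM159 was lower than in A549 for 14 of the 20, against 27.2% of all genes, and higher for 3, against 25.8%. Of the 9 genes, FAS and TNFRSF10A responded less in SUM159, and TNFRSF10B and TNFRSF10D more.

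Of 20 interferon-stimulated genes, 13 of the 18 tested rose and 2 fell with the combination (median log2 1.16), 11 rose and 1 fell with PF-06873600 in A549 (0.77), and 11 of 19 rose and 4 fell in SUM159 (0.60). The shares of all genes higher and lower were 35.1% and 30.0%, 28.5% and 27.8%, and 38.1% and 35.6% in the same order. IFI27 went from 0.703 ± 0.514 CPM to 11.3 ± 0.279 CPM and ISG15 from 0.843 ± 0.249 CPM to 8.57 ± 1.11 CPM with the combination, and IFI44 and IFI6 rose 6.77-fold and 4.11-fold. With PF-06873600 ISG15 rose 8.11-fold, IFI44 7.24-fold, IFI27 4.94-fold and CMPK2 4.44-fold in A549. Untreated A549 means were also low for IFI44 (0.335 CPM) and CMPK2 (0.571 CPM), so these folds start from low levels. In SUM159 IFI27, IFI6 and IFI44L rose 5.17-fold, 4.07-fold and 3.15-fold, and IFIT1 fell from 48.1 ± 1.32 CPM to 15.3 ± 0.886 CPM. With DESeq2, 9 of the 18 rose with PF-06873600 in A549.

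The NF-kB targets rose in 11 of 12 cases with the combination (median log2 1.32), in 9 with 1 lower with PF-06873600 in A549 (0.82) and in 12 of 12 in SUM159 (3.33, also with CCL2 at its bound). Of all genes, 35.1%, 28.5% and 38.1% were higher in the same order, and 27.8% were lower with PF-06873600 in A549. CXCL8, a chemokine gene, went from 6.66 ± 0.480 CPM to 88.5 ± 2.67 CPM with the combination and to 74.4 ± 1.85 CPM with PF-06873600, and IL6 rose 13.3-fold and 12.2-fold. CCL2 rose 65.6-fold and 19.9-fold from only 9 and 13 untreated counts, and CXCL2 1.99-fold with PF-06873600. The untreated A549 mean of IL6 was also low, at 0.539 CPM. In SUM159 CXCL1 rose 182-fold, IL6 30.9-fold and CXCL8 18.2-fold, and CCL2 was at least 45.6-fold higher, with 0 counts in both untreated libraries. For all 12 the change in SUM159 exceeded that in A549 (edgeR), against 25.8% of all genes. CCL2 passed the filter on low counts in the SUM159 model only through the treated libraries, so only a rise could be called there. Its place in both counts of 12 rests on 0 untreated counts. With TMM scaling or DESeq2 each list kept the sign of its median in these 3 comparisons.

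**Figure D4:**
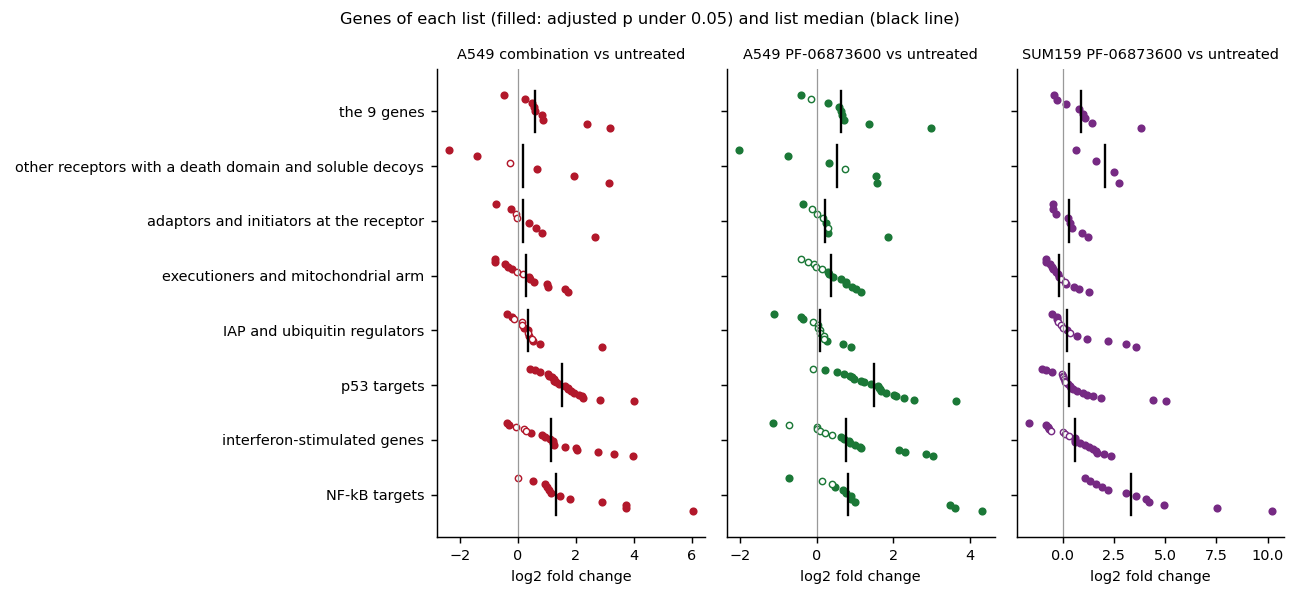
The log2 fold change (horizontal axis) of each tested gene of the 9 and of 7 lists against untreated cells, for the combination and PF-06873600 in A549 and PF-06873600 in SUM159, with filled points where the edgeR adjusted p was under 0.05, open points where it was not, and a black line at the list's median. The p53 list centres on 1.52 and 1.5 in A549 and on 0.31 in SUM159, the NF-kB list on 1.32, 0.82 and 3.33, and the rightmost point in SUM159 is CCL2, whose fitted value rests on 0 untreated counts.

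Over the 10 A549 libraries, the genes most like each of the 9 in log2 CPM, among 13856 ranked, are given as a description of libraries that share their groups. FAS was most like NTN4 (Pearson r 0.996), CREB5 (0.995) and GFPT2 (0.994), all across 10 libraries. TNFRSF10B was most like RHOBTB3 (0.991), ANKRD20A5P (0.990) and EDA2R (0.989), the last a receptor gene of the lists above. TNFRSF10C was most like BCL10 (0.994), HMOX1 (0.989) and OLFML2A (0.988), TNFRSF10A most like EIF4G2 (0.991), RDX (0.990) and CCDC90B (0.990), and TNFRSF10D most like DZIP1 (0.987), INPP4B (0.983) and ALDH5A1 (0.981). For CASP8 they were S100A2 (0.988), NOMO2 (0.985) and FBXO22 (0.981), for CFLAR ENSG00000276851 (0.989), PGK1 (0.986) and DDX24 (0.986), and for TNFRSF1A RBFOX3 (0.991), NR4A1 (0.977) and SLC23A2 (0.977). TNFSF10 had the lowest r of the 9 for its best match, with SLC30A6 (0.957), GJA1 (0.951) and PTPN12 (0.951).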

How the data were processed

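RNA was sequenced from 14 libraries by a stranded poly(A) protocol with single-end reads. Per the submitters' processing notes the authors used HISAT2 2.2.1 and HTSeq with GRCh38, and deposited raw read counts per gene. The strand setting and annotation release of the counting are not given in the sources used here. The 9 summary lines of each file were left out of library totals, and ambiguous reads came to between 3.55% and 4.21% of the reads counted on genes plus the ambiguous ones. CPM was the count of a gene scaled to the same total of counts on genes in every library. Groups came from the sample labels.

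Differences were tested with edgeR 4.0.16 (quasi-likelihood F test, library totals without further scaling, filterByExpr, Benjamini-Hochberg adjustment over all genes tested, threshold 0.05) in 1 model for the 10 A549 libraries, 1 for the 4 SUM159 libraries and 1 for all 14. The SE of a log2 change was its size divided by the square root of F. In the SUM159 model, a gene too low for the filter in 1 group was tested only if the other group passed. Such a gene could be called only in the direction of that group. Leaving out a library kept the other libraries of the model, so a lone sample was assumed to vary like the other groups. The script was tested on simulated counts. Alternatives were TMM scaling, DESeq2 1.42.0, other filters, only the compared groups, a replicate block and each library left out; transcript lengths of MANE Select and a crossed block were added after the data were seen.

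The 9 genes, the lists and the tests were chosen with earlier results of these data known. Of the other listed genes, up to 4 per list were named, those with the largest absolute log2 change among genes past the threshold with at least 1 CPM in the higher group, in combination, A549 PF-06873600 and SUM159 PF-06873600 against untreated. For each of the 9 genes, the 3 genes with the highest Pearson r of log2 CPM (prior count 2) over the A549 libraries, among genes with a mean of at least 1 CPM there, were named too. Listed genes with at most 3 counts in every library were also named. Some genes that these rules name are not reported here. Positions and lengths were taken from GENCODE release 44 on hg38. No TNFRSF10A, TNFRSF10B, TNFRSF10C or TNFRSF10D entry was used among the promoter sequences.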

Additional observations from a re-analysis of the deposited data

Results flagged for a closer look

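The response to 0.5 µM PF-06873600 over 7 days differed between SUM159 and A549 for 7 of the 9 genes, by edgeR's test of the difference itself in all 14 libraries, with 4 higher in SUM159 against 25.8% of all 17279 genes and 3 lower against 27.2%. Values are SUM159 minus A549 on the log2 scale. The response of TNFSF10 was larger in SUM159 by 3.97, that of TNFRSF10D by 1.13, that of CFLAR by 0.51 and that of TNFRSF10B by 0.33. For FAS the difference was -2.19, for TNFRSF10A -1.04 and for CASP8 -0.56. TNFRSF10A was the only one of them with opposite called directions, higher in A549 and lower in SUM159. All 7 calls held with each library left out in turn, with TMM scaling and with DESeq2. The untreated SUM159 level of TNFSF10 rests on 8 and 6 counts.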

How the results depend on the processing

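Of 1037 log2 values of the 9 genes recomputed under an alternative, 963 kept their direction and side of the threshold, 55 lost their call, 9 gained one and 10 changed sign, all 10 in values that were not called. With a scaling changed, these were CFLAR with indisulam (-0.013 with TMM and -0.0055 with DESeq2). With a library left out, TNFRSF10C with palbociclib ran from -0.34 to 0.093 (positive without palbociclib library 2), TNFSF10 in the combination against palbociclib from -0.14 to 0.049 (positive without combination library 2), TNFRSF10B beyond the sum of the single drugs from -0.047 to 0.080 (negative without palbociclib library 1 or indisulam library 2), TNFRSF10A in PF-06873600 against the combination from -0.013 to 0.078 (negative without PF-06873600 library 1), CFLAR there from -0.057 to 0.093 (negative without combination library 2 or PF-06873600 library 2) and CFLAR between untreated lines from -0.10 to 0.012 (positive without SUM159 library 1). With only the compared groups in the fit, 0 genes in place of 3 were higher with palbociclib, and leaving out a library gave 1 to 3. The 2 genes higher beyond the sum became 1 with TMM, DESeq2, the replicate block or only the compared groups, and 0 to 2 with a library left out; the 2 lower became 1 with DESeq2 and 1 to 3 with a library left out. In PF-06873600 against the combination, the 1 gene higher became 2 with TMM, 0 without the filter and 0 to 0 with a library left out. With untreated library 1 left out, 2 genes in place of 1 were lower with PF-06873600 in A549 (1 to 2 over the libraries). Apart from the fewer samples in these fits, the cause was not tested.

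The calls over all genes with palbociclib went from 2478 to 1584 with DESeq2, 949 with only the compared groups, 1472 without palbociclib library 1 and 1301 without palbociclib library 2. With TMM the share of higher calls went from 61.6% to 50.4% for indisulam and from 40.9% to 51.8% for PF-06873600 against the combination, whose median over all genes moved from -0.10 to 0.00. TMM changed member levels by -4.86% to 3.47%, beyond 1 SD for 23 of 63. Other lengths moved all 28 ratio values.

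Replicate numbers are shared by all groups. Deviations of same-numbered libraries correlated at -0.32 for palbociclib and untreated A549, 0.27 for indisulam and -0.22 between untreated lines. With so few libraries per group, these correlations cannot show whether the numbers mark a common origin. With the replicate block, TNFSF10 with palbociclib (adjusted p = 0.0531) and TNFRSF10C beyond the sum (0.0560) lost their calls and FAS in PF-06873600 against the combination gained one (0.0430). Crossing the numbers, tried after seeing the data, kept 3 genes higher with palbociclib and 3 higher and 5 lower between lines. Depth limits TNFRSF10C in SUM159, at no more than 3 counts.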
